A study of Mus musculus with 12 samples.

Results

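The 10 genes described here encode the core of the cytosolic inflammasome and NOD pathways. They are the inflammasome sensors Nlrp3, Nlrc4 and Aim2, the adaptor Pycard (ASC), the inflammatory caspases Casp1 and Casp4, the pore-forming protein Gsdmd, and the peptidoglycan receptors Nod1 and Nod2 with their kinase Ripk2. They were chosen by symbol, and all 10 were found among the 41709 genes counted. All 10 also passed the filter on low counts in each comparison.

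RNA-seq was performed on MHCII+ bone marrow-derived dendritic cells (BMDCs), which had been grown from mouse bone marrow in GM-CSF for 10 days and isolated with magnetic beads. The 4 groups, with 3 libraries each, were unstimulated CD18fl/fl, CD18fl/fl with 100 ng/mL LPS, unstimulated CD18CD11c cKO, and CD18CD11c cKO with 100 ng/mL LPS. Both genotypes were homozygous for a floxed exon 3 of Itgb2, which encodes CD18, the chain shared by all β2 integrins. The cKO mice in addition carried Cre under the CD11c promoter, so that deletion depended on CD11c promoter activity in the cultured cells and need not have been complete. The labels give 24 h of LPS, whereas the methods describe stimulation overnight. Ages of the mice, and whether cells of several mice were pooled, were not given in the sources used here. Since nothing states that the 3 libraries of a group came from separate mice or cultures, p-values measure the spread between these libraries, which may be technical.

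Inflammasome sensors detect microbial products or cell damage in the cytosol and assemble with the adaptor ASC into complexes that activate caspase-1. Caspase-1 matures IL-1β and IL-18 and cleaves gasdermin D, whose fragment forms pores in the plasma membrane and leads to pyroptosis. Caspase-4, known in mice as caspase-11, binds intracellular LPS and cleaves gasdermin D without ASC. NOD1 and NOD2 bind peptidoglycan fragments and signal through RIPK2 to NF-κB. Dendritic cells respond to extracellular LPS through TLR4, which by itself induces several of these genes ahead of inflammasome assembly. RNA levels do not show whether a complex was assembled or a caspase cleaved.

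In both genotypes, LPS raised the 2 inflammatory caspases. The fitted rise was 2.98-fold (CD18fl/fl) and 2.43-fold (CD18CD11c cKO) for Casp1, and 6.03-fold and 6.09-fold for Casp4. Ripk2 rose 4.10-fold with LPS in CD18fl/fl BMDCs, and in CD18CD11c cKO BMDCs its 4.55-fold rise passed the edgeR test with the replicate number as a block, whereas the fit without it gave an adjusted p of 0.0513. Between the genotypes, edgeR without the block called 0 members and 0% of all genes in either state. Pycard was the member called in both states once that block was used with TMM scaling. It was then 1.81-fold (unstimulated) and 1.54-fold (LPS) higher in CD18CD11c cKO BMDCs, where the block called 12.1% and 6.98% of all genes higher. The block assumes that same-numbered libraries are paired, which the sources used here do not state. The call after LPS was lost with the block and library size scaling. Nlrp3, Gsdmd and Nod2 behaved differently in replicate 3 than in replicates 1 and 2.

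Casp1 and Casp4 lie head to tail on the plus strand of mouse chromosome 9, with 1537 bases between them. Casp1 spans chr9:5298508-5307290 and Casp4 spans chr9:5308828-5336783 (GRCm39). Their upstream sequences are shown because they are the pair of members that moved together most closely. RefSeq promoter sequences (table build GRCm38.p6) were found for 8 of the 10 members, and the 250 bases before a RefSeq transcription start of both genes were placed in GRCm39 by exact match, at chr9:5298267-5298516 (Casp1) and chr9:5308599-5308848 (Casp4). The last bases of both windows lie within the gene as the files place it. Capitals mark matches to a loose form of the NF-κB site (GGG, any 5 bases, CC) on either strand.
Casp1: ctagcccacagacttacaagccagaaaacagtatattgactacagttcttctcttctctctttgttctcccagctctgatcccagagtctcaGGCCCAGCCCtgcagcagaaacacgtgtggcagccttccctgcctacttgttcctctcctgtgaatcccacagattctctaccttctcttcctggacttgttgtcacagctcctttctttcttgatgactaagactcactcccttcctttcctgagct
Casp4: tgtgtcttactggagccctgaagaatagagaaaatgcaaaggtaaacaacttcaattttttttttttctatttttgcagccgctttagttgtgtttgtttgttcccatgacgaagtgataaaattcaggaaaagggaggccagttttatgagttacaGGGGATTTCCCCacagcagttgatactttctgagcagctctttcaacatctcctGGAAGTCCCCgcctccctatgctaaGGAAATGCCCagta
The Casp1 window held 1 match, GGCCCAGCCC, which starts 158 bases before the start site. The Casp4 window held 5 matches, which start 93, 92, 91, 39 and 14 bases before it, and the first 3 overlap within 1 run of 12 capitals. At least 1 such match was present in 45.8% of the 32851 promoter windows of this length, and 5 or more in 2.22%. The letters GGGGATTTCC, read off the Casp4 window after it was seen, occurred in 31 windows (0.0944%). Neither window held the core of an interferon-stimulated response element (GAAA, any 2 bases, GAAA, in 2.98% of all windows), or TTCNNNGAA, a gamma-activated site (in 7.02%), on either strand. These matches are letters in a window and do not show binding.

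Libraries held between 29689149 and 34037178 total gene reads, and a floor of 3 reads was worth 0.0881 to 0.101 CPM, a unit that divides counts by library size. This floor covers counting error only, and PCR-amplified reads are not independent molecules. The standard errors given below also hold the spread between libraries. Levels below are CPM after TMM scaling, which adjusts for differences in composition between libraries. The targeted gene Itgb2 had 381.7, 420.2 and 379.1 CPM in unstimulated CD18fl/fl and 120.5, 163.4 and 189.5 CPM in unstimulated CD18CD11c cKO BMDCs, and 167.1, 171.1 and 266.5 against 114.4, 89.7 and 118.6 CPM after LPS, without overlap in either state. Replicate 3 of every group stood apart from replicates 1 and 2: the first component of the libraries' deviations from their group means held 51.3% of the variance and separated it. The 8 dendritic cell markers summed to 13416 to 17401 CPM in the replicate 3 libraries and to 20427 to 35090 CPM in the others. Among them Flt3 was at 0.227 to 2.25 against 9.22 to 35.5 CPM, whereas Cd74 was highest in replicate 3 in both CD18CD11c cKO groups, and the summed mast cell and basophil markers were at 38.3 to 164 CPM against 8.18 to 14.7 CPM. All 8 dendritic cell markers were above the floor in every library. Neutrophil markers summed to 1332 CPM in unstimulated CD18fl/fl replicate 1, and to between 10.7 and 195 CPM elsewhere. As a check of the LPS label, 6 LPS-induced genes summed to between 497 and 1820 CPM in the unstimulated and between 14414 and 21006 CPM in the LPS-treated libraries. The part of these cells in the results on the members was not tested. In bulk RNA, fewer cells of a type and less RNA per cell cannot be told apart.

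**Figure D1:**
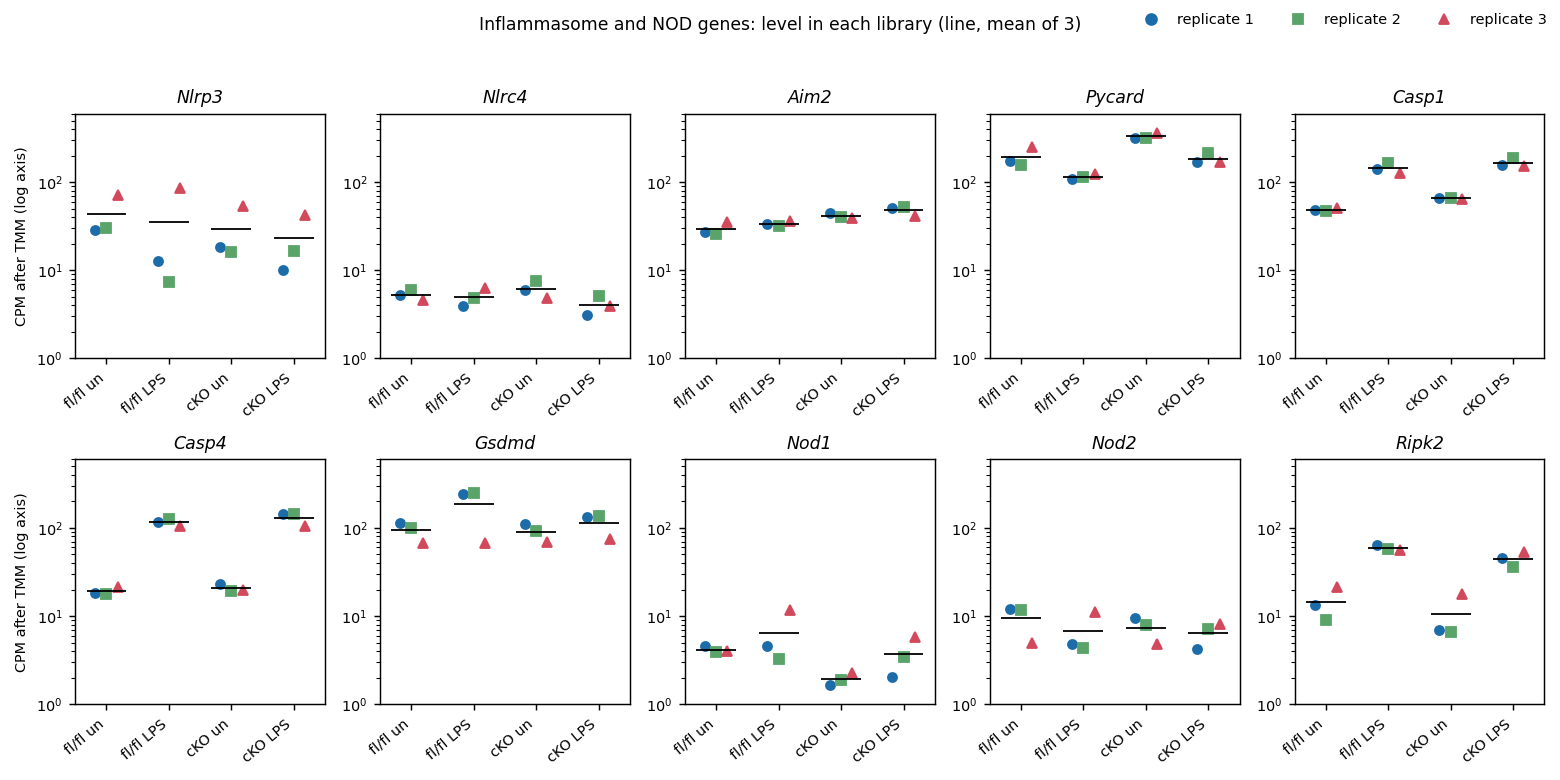
Level of each of the 10 genes in each library (CPM after TMM, log axis), with the 4 groups on the horizontal axis (un, unstimulated), the replicate number as colour and shape, and the mean of 3 libraries as a line. Casp1, Casp4 and Ripk2 sat higher in every LPS library than in any unstimulated library of the same genotype, whereas replicate 3 (triangles) had the highest Nlrp3 and the lowest Gsdmd value of every group.

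The sensors were examined first. Nlrp3, which responds to ion fluxes and membrane damage (chromosome 11, 59432394 to 59457782), had 28.7, 30.1 and 71.1 CPM in unstimulated and 12.7, 7.29 and 85.2 CPM in LPS-treated CD18fl/fl BMDCs. The CD18CD11c cKO values were 18.4, 16.3 and 53.2 CPM without and 10.2, 16.4 and 42.3 CPM with LPS. In each of the 4 groups, replicate 3 was the highest library, and the LPS and unstimulated groups overlapped in both genotypes. The log2 fold change with LPS was -0.29 (SE, standard error, 0.90, adjusted p = 0.874 by edgeR) in CD18fl/fl and -0.37 (SE 0.66, adjusted p = 0.802 by edgeR) in CD18CD11c cKO BMDCs. Without LPS replicate 3, the value in CD18fl/fl BMDCs was -2.11 (edgeR adjusted p = 0.031), and with replicates 1 and 2 of both groups alone it was -1.56 (edgeR adjusted p = 0.000347). The LPS call of this sensor in CD18fl/fl BMDCs thus depended on 1 library.

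Nlrc4, the adaptor-sensor for flagellin and type III secretion proteins (chromosome 17, 74732433 to 74766137), was among the lowest members. Its 12 values lay between 3.1 and 7.5 CPM, backed by 77 to 245 reads. The edgeR adjusted p was 0.918 and 0.401 for LPS and 0.727 and 0.825 for genotype, with log2 fold changes of -0.07, -0.63, 0.25 and -0.34.

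Aim2, the sensor for cytosolic double-stranded DNA (chromosome 1, 173178445 to 173293606), had 27.4, 26.0 and 35.0 CPM in unstimulated CD18fl/fl and 45.0, 40.2 and 39.0 CPM in unstimulated CD18CD11c cKO BMDCs. After LPS, the values were 33.6, 31.8 and 36.0 CPM and 50.4, 52.5 and 41.8 CPM, respectively. All CD18CD11c cKO libraries were thus above all CD18fl/fl libraries of the same state after TMM scaling, whereas the genotypes overlapped in both states with library size scaling. In unstimulated BMDCs, the log2 fold change between the genotypes was 0.55 (SE 0.19, adjusted p = 0.23 by edgeR) without and 0.56 (SE 0.16, adjusted p = 0.0432 by edgeR) with the replicate block. An offset for exon length added to the block left 0.58 with an edgeR adjusted p of 0.0505. After LPS it was 0.48 (SE 0.21, adjusted p = 0.521 by edgeR), and 0.106 was the adjusted p with the block. The LPS difference of Aim2 was 0.21 in CD18fl/fl and 0.17 in CD18CD11c cKO BMDCs on the log2 scale, with edgeR adjusted p of 0.602 and 0.704. Both turned negative under library size scaling, at -0.10 and -0.047. The locus overlaps Cadm3 on the opposite strand, which had at most 21 reads in any library, and the paper's methods do not state whether the libraries keep the strand. The log2 fold change between the genotypes stayed positive under that scaling, at 0.15 without stimulation and 0.21 after LPS.

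Pycard encodes ASC, which links NLRP3 and AIM2 to caspase-1 (chromosome 7, 127588880 to 127593039). It overlaps the predicted gene Gm45205 on the opposite strand, which had at most 9 reads in any library. Its levels were 175.3, 157.9 and 251.5 CPM in unstimulated and 108.5, 115.5 and 123.2 CPM in LPS-treated CD18fl/fl BMDCs. They were 320.1, 320.7 and 357.5 CPM without and 167.8, 213.4 and 167.1 CPM with LPS in CD18CD11c cKO BMDCs. The lowest library of unstimulated CD18CD11c cKO BMDCs was above the highest of unstimulated CD18fl/fl BMDCs, and the same held after LPS, while within each genotype every LPS library was below every unstimulated one. With library size scaling, the genotypes overlapped in both states. Pycard then had 211, 199 and 317 (CD18fl/fl) against 301, 304 and 382 CPM (CD18CD11c cKO) without stimulation. After LPS, the values were 105, 102 and 142 against 133, 159 and 157 CPM.

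With LPS, the log2 fold change of Pycard was -0.75 (SE 0.26, adjusted p = 0.15 by edgeR) in CD18fl/fl BMDCs, and 0.0857 was the adjusted p with the block. The value was -0.92 in CD18CD11c cKO BMDCs (SE 0.22, adjusted p = 0.0682 by edgeR), and with the block -0.92 (SE 0.18, adjusted p = 0.0143 by edgeR). The difference between these 2 responses was -0.11 (SE 0.31), with an edgeR adjusted p of 1 in the interaction test. Between the genotypes, the log2 fold change was 0.83 (SE 0.22, adjusted p = 0.163 by edgeR) in unstimulated and 0.63 (SE 0.22, adjusted p = 0.449 by edgeR) in LPS-treated BMDCs. The block gave 0.86 (SE 0.15, adjusted p = 0.00912 by edgeR) and 0.63 (SE 0.15, adjusted p = 0.0435 by edgeR). With the length offset in addition, the values were 1.00 and 0.77, with edgeR adjusted p of 0.00991 and 0.0255. Library size scaling without a block reduced them to 0.44 and 0.36, while it moved the median of all genes tested to -0.44 and -0.37. With the block and that scaling, Pycard was still called in unstimulated BMDCs (0.46, adjusted p = 0.031 by edgeR) but not after LPS (0.37, adjusted p = 0.122 by edgeR).

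Casp1, the caspase that matures IL-1β, had 48.5, 46.5 and 50.9 CPM in unstimulated and 141.6, 166.6 and 125.3 CPM in LPS-treated CD18fl/fl BMDCs. The corresponding values were 65.4, 66.3 and 64.2 CPM and 154.9, 186.8 and 151.9 CPM in CD18CD11c cKO BMDCs. The LPS and unstimulated libraries did not overlap in either genotype. Same-numbered libraries differed 2.92-, 3.58- and 2.46-fold in CD18fl/fl and 2.37-, 2.82- and 2.37-fold in CD18CD11c cKO BMDCs. These were log2 fold changes of 1.58 (SE 0.22, adjusted p = 0.0192 by edgeR) and 1.28 (SE 0.21, adjusted p = 0.03 by edgeR), and with the block the adjusted p fell to 0.0121 and 0.00426.

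Casp4, the LPS-binding caspase, had the largest fitted log2 fold change with LPS of the 10 genes in both genotypes, although Ripk2 differed more in CD18CD11c cKO replicate 1 (6.55- against 6.21-fold). It had 18.2, 17.9 and 21.6 CPM in unstimulated and 115.4, 125.7 and 105.9 CPM in LPS-treated CD18fl/fl BMDCs. Its CD18CD11c cKO values were 22.9, 19.1 and 19.9 CPM and 142.2, 142.4 and 106.3 CPM, so that each LPS library was at least 4.90-fold above its same-numbered unstimulated library. On the log2 scale, the rise was 2.59 (SE 0.22, adjusted p = 0.00989 by edgeR) in CD18fl/fl and 2.61 (SE 0.23, adjusted p = 0.0115 by edgeR) in CD18CD11c cKO BMDCs. Per exon length, Casp4 amounted to 0.258 ± 0.017 (SD, n = 3) of Casp1 in unstimulated and 0.527 ± 0.030 (SD, n = 3) in LPS-treated CD18fl/fl BMDCs. This ratio was 0.207 ± 0.020 (SD, n = 3) and 0.519 ± 0.073 (SD, n = 3) in CD18CD11c cKO BMDCs.

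Each library was left out in turn. Without unstimulated CD18fl/fl replicate 1 or 2, or LPS replicate 1 or 2, 0 of all genes tested were called in that genotype, Casp1 and Casp4 included. Over these 6 fits, Casp1 stayed at a log2 fold change between 1.47 and 1.67 and that of Casp4 between 2.53 and 2.68. Leaving out replicate 3 of the LPS group gave edgeR adjusted p of 0.006 (Casp1) and 0.004 (Casp4). In CD18CD11c cKO BMDCs, the Casp1 value ranged from 1.21 to 1.34 and its edgeR adjusted p from 0.026 to 0.143, and it was past the threshold only without LPS replicate 3. Casp4 ranged from 2.56 to 2.70 there, with an edgeR adjusted p from 0.008 to 0.068. It was not called without unstimulated replicate 1 (0.057) or 2 (0.060) or LPS replicate 2 (0.068). Casp12, the neighbouring caspase gene, was at 1.42 CPM or below in every library.

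Between the genotypes, Casp1 was 0.48 higher in unstimulated CD18CD11c cKO BMDCs on the log2 scale (SE 0.16, adjusted p = 0.219 by edgeR), where the libraries did not overlap after TMM scaling. With the block the same value had an edgeR adjusted p of 0.0432, and with the length offset in addition it was 0.19 (edgeR adjusted p = 0.389). With library size scaling, the unstimulated genotypes overlapped. Casp1 then had 58.5, 58.6 and 64.2 (CD18fl/fl) against 61.5, 62.8 and 68.7 CPM (CD18CD11c cKO). After LPS, the log2 fold changes between the genotypes were 0.16 (Casp1) and 0.14 (Casp4), with SE of 0.23 and 0.22 and edgeR adjusted p of 0.867 and 0.88. Both turned negative under library size scaling, at -0.084 and -0.11.

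Gsdmd, the pore-forming substrate of both caspases (chromosome 15, 75734176 to 75739257), had 113.7, 100.6 and 67.5 CPM in unstimulated and 244.8, 249.99 and 67.8 CPM in LPS-treated CD18fl/fl BMDCs. CD18CD11c cKO BMDCs had 109.9, 92.0 and 69.9 CPM and 131.8, 136.4 and 75.6 CPM. Thus LPS libraries were 2.15- and 2.48-fold above the same-numbered unstimulated ones in replicates 1 and 2 of CD18fl/fl BMDCs and 1.00-fold in replicate 3, against 1.20-, 1.48- and 1.08-fold in CD18CD11c cKO BMDCs. This gave a log2 fold change of 1.00 (SE 0.50, adjusted p = 0.277 by edgeR) in CD18fl/fl and 0.28 (SE 0.29, adjusted p = 0.641 by edgeR) in CD18CD11c cKO BMDCs. With replicates 1 and 2 alone, it was 1.21 (edgeR adjusted p = 9.85e-05) and 0.31 (edgeR adjusted p = 0.328). Without CD18fl/fl LPS replicate 3, it was 1.40 (edgeR adjusted p = 0.018). On all 6 libraries, DESeq2 with the replicate block also called Gsdmd higher in CD18fl/fl BMDCs (0.85, SE 0.33, adjusted p = 0.047 by DESeq2), whereas edgeR with the block did not (0.82, adjusted p = 0.13).

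Without stimulation, the Gsdmd libraries of the genotypes overlapped (log2 fold change -0.0016, SE 0.28, adjusted p = 0.998 by edgeR). After LPS, CD18CD11c cKO BMDCs had 0.539- and 0.546-fold the CD18fl/fl level in replicates 1 and 2 and 1.12-fold in replicate 3. The fitted difference was -0.74 on the log2 scale (SE 0.51, adjusted p = 0.7 by edgeR), and -0.92 (edgeR adjusted p = 0.0383) with replicates 1 and 2 alone. The interaction of genotype and LPS was -0.66 (SE 0.62), and its edgeR adjusted p was 1 without and with the block, so that the smaller difference in CD18CD11c cKO BMDCs was not shown to differ from that in CD18fl/fl BMDCs.

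**Figure D2:**
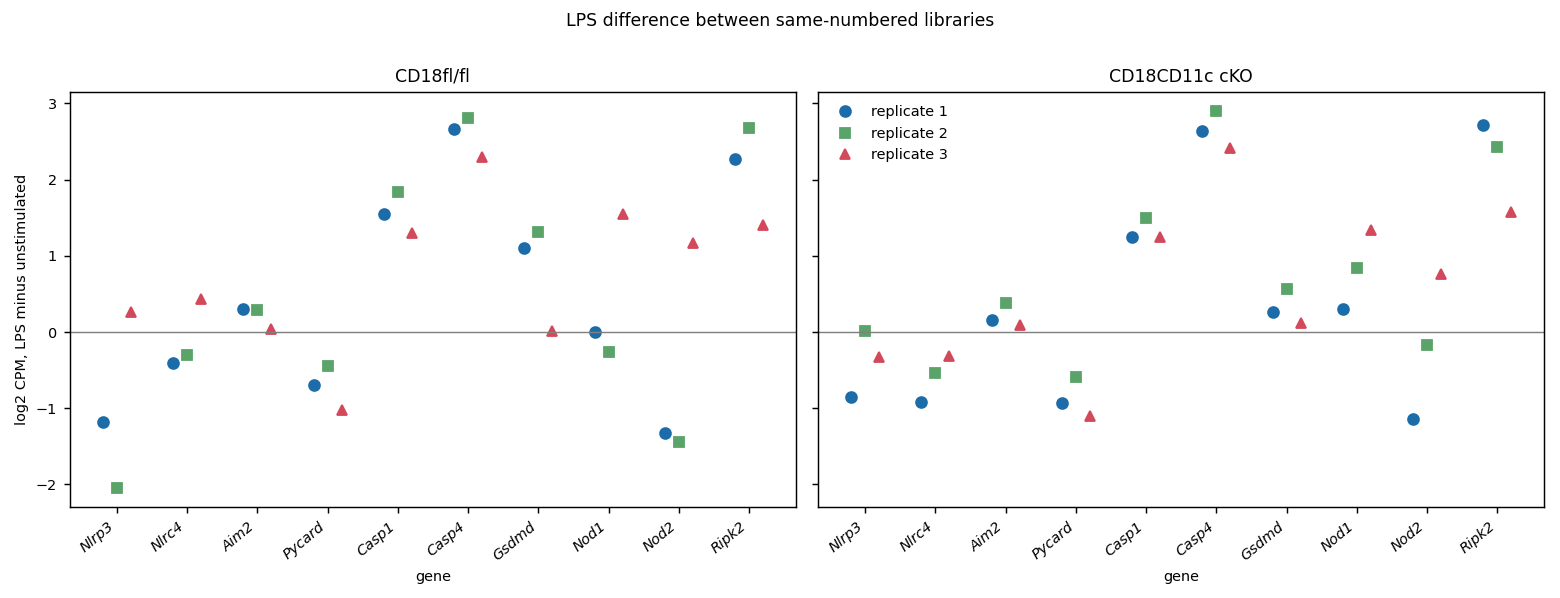
Difference in log2 CPM between the LPS and the unstimulated library of the same replicate number (vertical axis) for the 10 genes (horizontal axis), in CD18fl/fl (left) and CD18CD11c cKO BMDCs (right), with the replicate number as colour and shape. All points of Casp1, Casp4 and Ripk2 are above 0 and all of Pycard below 0, whereas in CD18fl/fl BMDCs replicate 3 lies apart for Nlrp3 (0.26 against -1.18 and -2.05), Gsdmd, Nod1 and Nod2 (1.17 against -1.33 and -1.45).

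Nod1 and Nod2, which recognise different peptidoglycan fragments, were expressed at low levels. Nod1 (chromosome 6, 54900934 to 54949597) had 4.6, 3.9 and 4.0 CPM in unstimulated CD18fl/fl and 1.6, 1.9 and 2.3 CPM in unstimulated CD18CD11c cKO BMDCs, without overlap. After LPS, it had 4.6, 3.2 and 11.7 CPM and 2.0, 3.4 and 5.8 CPM, and the genotypes overlapped. The log2 fold change between the genotypes was -1.04 (SE 0.35, adjusted p = 0.226 by edgeR) in unstimulated BMDCs and -0.82 (SE 0.62, adjusted p = 0.728 by edgeR) after LPS, and in unstimulated BMDCs the block gave an edgeR adjusted p of 0.0851. The lowest Nod1 value rested on 46 reads, the fewest behind any value of the 10 genes.

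Nod2 (chromosome 8, 89373943 to 89415102) had 12.2, 11.8 and 4.9 CPM in unstimulated and 4.8, 4.3 and 11.0 CPM in LPS-treated CD18fl/fl BMDCs. CD18CD11c cKO BMDCs had 9.4, 7.9 and 4.8 CPM and 4.3, 7.1 and 8.1 CPM. Replicate 3 was the lowest unstimulated and the highest LPS library in both genotypes. The fitted LPS difference on the log2 scale was -0.51 (SE 0.51, adjusted p = 0.582 by edgeR) in CD18fl/fl and -0.22 (SE 0.42, adjusted p = 0.816 by edgeR) in CD18CD11c cKO BMDCs. Replicates 1 and 2 alone gave -1.39 (edgeR adjusted p = 0.000957) and -0.72 (edgeR adjusted p = 0.244).

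Ripk2, the kinase downstream of both receptors (chromosome 4, 16122733 to 16163647), had 13.2, 9.0 and 21.3 CPM in unstimulated and 63.7, 57.3 and 56.5 CPM in LPS-treated CD18fl/fl BMDCs. The CD18CD11c cKO libraries had 7.0, 6.6 and 17.7 CPM and 45.7, 35.8 and 53.0 CPM. All LPS libraries were above all unstimulated ones in both genotypes, and replicate 3 had the highest unstimulated value in each. Its rise was 2.04 on the log2 scale (SE 0.34, adjusted p = 0.0314 by edgeR) in CD18fl/fl BMDCs. The CD18CD11c cKO value was 2.06 (SE 0.45, adjusted p = 0.0513 by edgeR, and 0.014 to 0.048 with RLE size factors, other count filters, total exon reads or all 12 libraries), and with the block 2.19 (SE 0.26, adjusted p = 0.00298 by edgeR). Without unstimulated CD18CD11c cKO replicate 3 it was 2.68 (edgeR adjusted p = 0.016). In CD18CD11c cKO BMDCs, Ripk2 was not called by edgeR with any other library left out, with unique gene reads or with library size scaling alone. Its log2 fold change there was 1.82 to 2.68 with each library left out. Over all alternatives, the highest edgeR adjusted p was 0.175. Library size scaling gave 1.71 (adjusted p = 0.0515 by edgeR) in CD18fl/fl BMDCs, where leaving out replicate 1 or 2 of either group raised the edgeR adjusted p to between 0.114 and 0.143.

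Counted together, 3 of the 10 members were higher with LPS in CD18fl/fl BMDCs (Casp1, Casp4 and Ripk2) and 0 lower, where 2.06% of the 12744 genes tested were called higher and 1.83% lower. In CD18CD11c cKO BMDCs, 2 were higher (Casp1 and Casp4) and 0 lower, against 2.23% and 1.76% of 12687 genes. The libraries of the 2 groups did not overlap for 4 members in either genotype (Pycard lower, Casp1, Casp4 and Ripk2 higher), as for 29.5% of all genes in CD18fl/fl and 28.1% in CD18CD11c cKO BMDCs. The median log2 fold change of the members was 0.43 and 0.23, and that of all genes tested -0.02 and -0.01. Library size scaling moved the latter to -0.32 and -0.23 and the calls to 143 genes higher and 304 lower in CD18fl/fl (263 and 233 after TMM) and to 186 higher and 300 lower in CD18CD11c cKO BMDCs (283 and 223 after TMM). Casp1 and Casp4 were called higher in both genotypes under that scaling too, whereas Ripk2 was not. With the block, Casp1, Casp4 and Ripk2 were higher in each genotype (6.33% and 10.2% of all genes), and 0 members in CD18fl/fl (6.43%) and 1, Pycard, in CD18CD11c cKO BMDCs (9.93%) were lower. DESeq2 without a block called the same 3 members higher in both genotypes (5.15% and 4.07% of all genes), and 0 in CD18fl/fl (4.39%) and Pycard in CD18CD11c cKO BMDCs (3.96%) lower. With replicates 1 and 2 alone, edgeR called 4 members higher in CD18fl/fl BMDCs (Casp1, Casp4, Gsdmd and Ripk2, with 23.2% of all genes) and 3 lower (Nlrp3, Pycard and Nod2, with 24.3%). In CD18CD11c cKO BMDCs, that fit called Casp1, Casp4 and Ripk2 higher (7.93% of all genes) and Pycard lower (7.99%).

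Between the genotypes, 0 of the 10 members and 0% of all genes were called in either state by edgeR without the block. At an unadjusted p under 0.05, this held for 4 members (Aim2, Pycard, Casp1 and Nod1) and 2159 of 12876 genes in unstimulated BMDCs, and for 1 member (Pycard) and 1212 of 12441 genes after LPS. After TMM scaling, the genotypes did not overlap for 4 members in unstimulated BMDCs (Aim2, Pycard, Casp1 and Nod1) and 3 after LPS (Aim2, Pycard and Ripk2), as for 24.8% and 17.6% of all genes. With library size scaling, Aim2 and Pycard overlapped in both states and Casp1 in unstimulated BMDCs. DESeq2 called 0 members in either state, where it called 2.62% of all genes higher and 0.251% lower in unstimulated and 0.746% higher and 0.0476% lower in LPS-treated BMDCs. With replicates 1 and 2 alone, edgeR called Aim2 and Pycard higher and 0 members lower in unstimulated BMDCs (7.91% and 2.67% of all genes), and 0 members higher and Gsdmd lower after LPS (3.24% and 0.977%). With the block, edgeR called Aim2, Pycard and Casp1 higher and Nlrp3 lower in unstimulated CD18CD11c cKO BMDCs, where 12.1% of all genes were called higher and 8.16% lower. For Nlrp3 that fit gave -0.59 on the log2 scale (SE 0.16, adjusted p = 0.036 by edgeR), and -0.42 (edgeR adjusted p = 0.105) with the length offset in addition. After LPS, Pycard was the 1 member called with the block, with 6.98% of all genes called higher and 3.16% lower. With library size scaling beside the block, Gsdmd (-0.82, adjusted p = 0.042 by edgeR) and Ripk2 (-0.69, adjusted p = 0.029 by edgeR) were called lower instead. In the interaction test, 0 members and 0 of 13752 genes were called by edgeR, and 0 members and 97 genes had an unadjusted p under 0.05, while DESeq2 called 0 members and 1 gene (0.00488%).

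**Figure D3:**
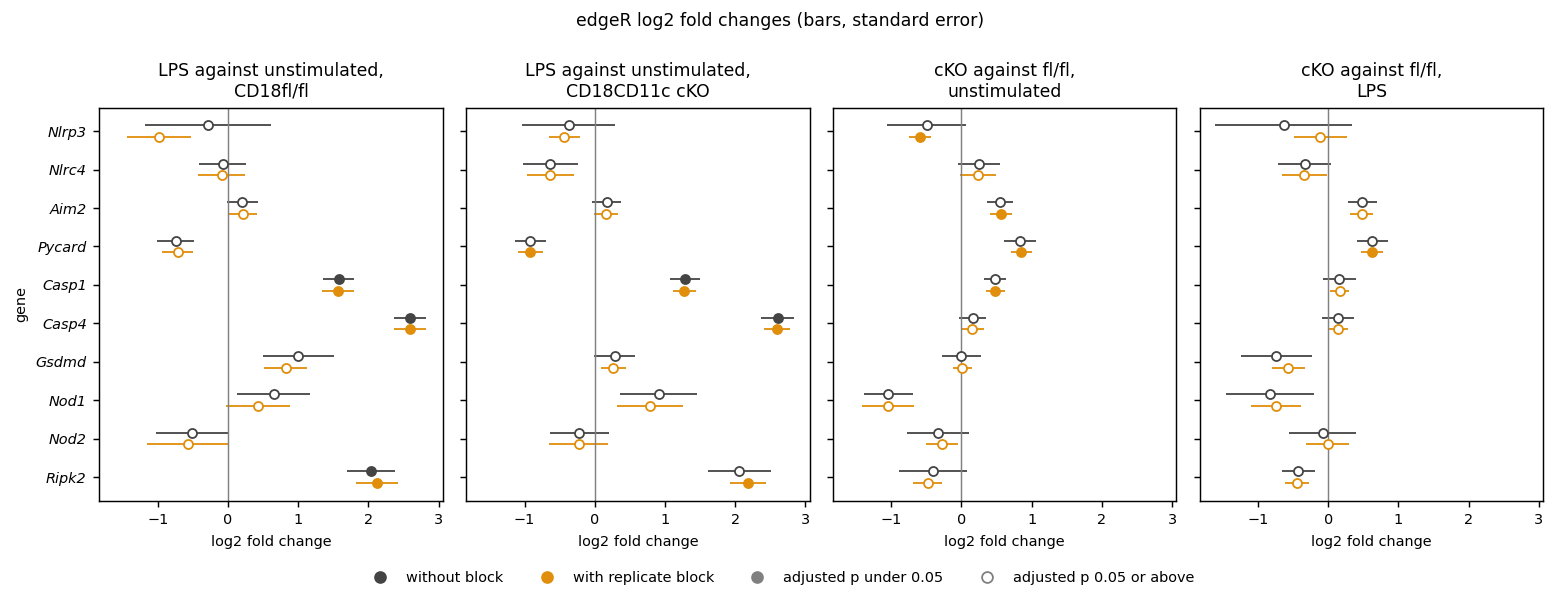
Log2 fold changes of the 10 genes by edgeR (horizontal axis, bars are standard errors) for LPS in each genotype (2 panels on the left) and for CD18CD11c cKO against CD18fl/fl in each state (2 panels on the right), without (grey) and with (orange) the replicate block. Filled points have an adjusted p under 0.05. Casp1 and Casp4 are filled in both LPS panels in both fits, and Pycard is filled in both genotype panels with the block only.

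Levels of different genes were set side by side per length of exon. The length used for a gene need not be that of the transcript present in the cells. For Pycard, with 2 transcripts annotated, 3800 of the gene's 4160 bases were counted as exon. The order and the ratios between genes depend on such lengths. On this scale, Pycard and Gsdmd led in unstimulated CD18fl/fl BMDCs. Pycard reached 51.3 ± 13.1 (SD, n = 3) and Gsdmd 49.7 ± 12.6 (SD, n = 3) CPM per kilobase of exon, with overlapping libraries. Casp1 followed with 29.8 ± 1.36 (SD, n = 3), and its libraries overlapped with neither neighbour in the order. Nlrp3, Aim2, Casp4 and Ripk2 had means between 5.15 and 10.7, and Nod2, Nlrc4 and Nod1 between 0.884 and 1.99, with Nod2 overlapping Nlrc4 and Nlrc4 overlapping Nod1.

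After LPS, Gsdmd led in CD18fl/fl BMDCs with 99.3 ± 54.9 (SD, n = 3) CPM per kilobase, overlapping with Casp1. Casp1 stood at 88.5 ± 12.7 (SD, n = 3) in CD18fl/fl and led with 101 ± 11.9 (SD, n = 3) CPM per kilobase in CD18CD11c cKO BMDCs. Casp4 was the sixth without LPS in CD18fl/fl BMDCs and became the third, with 46.4 ± 3.97 (SD, n = 3). Pycard was the fourth after LPS in both genotypes. Casp1 amounted to 0.601 ± 0.114 (SD, n = 3) of Pycard per length in unstimulated and 2.92 ± 0.506 (SD, n = 3) in LPS-treated CD18fl/fl BMDCs, and to 0.459 ± 0.035 (SD, n = 3) and 2.10 ± 0.057 (SD, n = 3) in CD18CD11c cKO BMDCs. The receptors stayed at the lower end, since Nod1, Nod2 and Nlrc4 held the last 3 places in all 4 groups. Ripk2 exceeded Nod2 1.31- to 7.47-fold in unstimulated and 8.83- to 22.8-fold in LPS-treated CD18fl/fl libraries on this scale.

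**Figure D4:**
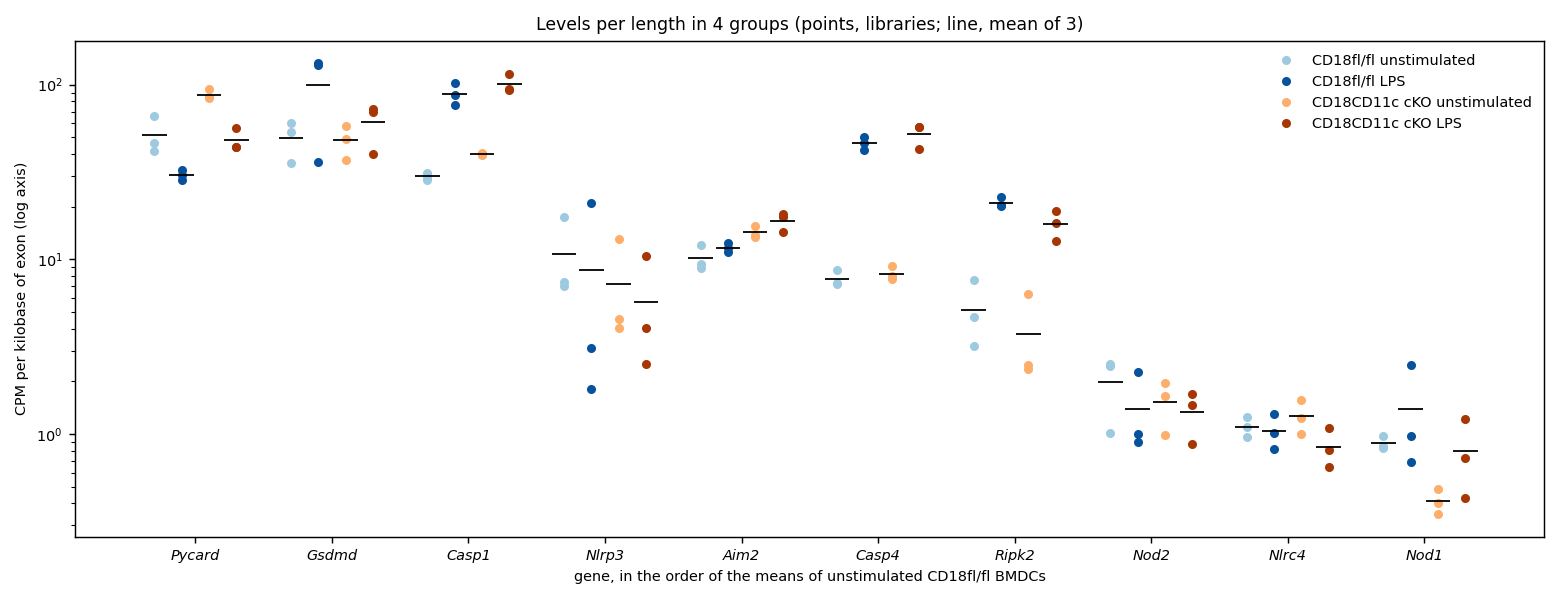
CPM per kilobase of exon (log axis) of the 10 genes in the 4 groups, ordered by the mean in unstimulated CD18fl/fl BMDCs, with a point for each library and a line for the mean of 3. Casp1, Casp4 and Ripk2 sit higher in the LPS groups than in the unstimulated groups, Pycard sits lower, and Nod2, Nlrc4 and Nod1 stay at the lower end throughout.

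Over the 12 libraries, the members whose log2 CPM ran most in parallel were Casp1 and Casp4 (Pearson r = 0.976), followed by Casp4 and Ripk2 (0.895) and Casp1 and Ripk2 (0.831). The most opposed were Nlrp3 and Gsdmd (-0.87). These values are descriptions over libraries that share treatment, genotype and replicate number, and no test was made. Among all genes, the 2 with the pattern most like a member's were Slc31a2 (0.985) and Prdx5 (0.982) for Casp4, Car13 (0.991) and Zup1 (0.99) for Casp1, Gbp6 (0.984) and Alcam (0.982) for Ripk2, and Tmco1 (0.973) and Rab7 (0.971) for Pycard. For the sensors, they were Fnbp4 (0.986) and Trrap (0.983) for Nlrp3, Vti1b and Nmd3 (both 0.949) for Aim2, and Ermp1 (0.925) and Cd22 (0.869) for Nlrc4. They were Rad21 (0.971) and Pirb (0.961) for Gsdmd, Fam53c (0.94) and Secisbp2l (0.937) for Nod1, and Mapkap1 (0.92) and Nccrp1 (0.904) for Nod2. After the mean of each replicate number was removed, Car13 remained closest to Casp1 (0.996), and Apol9b (0.995) and Bst2 (0.993) were closest to Casp4.

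The other genes of both pathways were counted in 4 lists. Of 79 genes, 72 were tested with LPS in CD18fl/fl BMDCs, where 8 were higher and 1 lower (2.06% and 1.83% of all genes), and 71 in CD18CD11c cKO BMDCs, where 6 were higher and 1 lower (2.23% and 1.76%). With the block, 14 were higher and 4 lower in CD18fl/fl (6.33% and 6.43% of all genes) and 17 higher and 5 lower in CD18CD11c cKO BMDCs (10.2% and 9.93%). Of the caspase-1 substrates, Il1b had 55.7, 55.9 and 11.3 CPM in unstimulated and 712, 772 and 1509 CPM in LPS-treated CD18fl/fl BMDCs. CD18CD11c cKO BMDCs had 104, 65.4 and 23.3 CPM and 1574, 948 and 2297 CPM. Replicate 3 had the lowest unstimulated and the highest LPS value in both genotypes. The log2 fold change of Il1b was 4.61 (SE 0.72, adjusted p = 0.0248 by edgeR) and 4.62 (SE 0.65, adjusted p = 0.021 by edgeR). Il18, the other substrate, lay between 3.56 and 16.0 CPM in the 12 libraries, with edgeR adjusted p of 0.881 and 0.643 for LPS.

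Of 30 inflammasome regulators and pyroptosis genes, 29 were tested in CD18fl/fl BMDCs. With LPS, 6 were higher and 1 lower by edgeR without the block (2.06% and 1.83% of all genes). With the block, 8 were higher and 2 lower (6.33% and 6.43% of all genes). The 4 with the smallest edgeR adjusted p were Irgm1, an interferon-induced GTPase (log2 fold change 2.45, adjusted p = 0.015), Zbp1, a sensor of Z-form nucleic acids (3.43, adjusted p = 0.0162), Mlkl, the executioner of necroptosis (2.71, adjusted p = 0.0162), and Gbp5, a guanylate-binding protein (3.66, adjusted p = 0.0371). In CD18CD11c cKO BMDCs, 4 of 28 were higher and 1 lower without the block (2.23% and 1.76% of all genes). With it, 10 were higher and 2 lower (10.2% and 9.93% of all genes). Those higher without the block were Zbp1 (3.06, edgeR adjusted p = 0.0124), Irgm1 (2.57, adjusted p = 0.0156), Gbp2 (2.12, adjusted p = 0.0294) and Gbp5 (2.93, adjusted p = 0.0415). The lower ones, named after their values were seen, were P2rx7, the ATP-gated channel upstream of NLRP3, in CD18fl/fl (-2.39, edgeR adjusted p = 0.0465) and Gsdme, a second gasdermin, in CD18CD11c cKO BMDCs (-1.28, edgeR adjusted p = 0.046).

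Of 30 genes of NOD signaling, 29 were tested. With LPS, edgeR without the block called 1 of them higher in either genotype, where it called 2.06% (CD18fl/fl) and 2.23% (CD18CD11c cKO) of all genes higher. This gene was Rnf31, a subunit of the linear ubiquitin ligase complex. It had 17.6, 16.1 and 13.6 CPM without and 39.8, 42.8 and 46.1 CPM with LPS in CD18fl/fl BMDCs, and 10.3, 12.8 and 10.7 CPM and 23.6, 31.5 and 27.1 CPM in CD18CD11c cKO BMDCs. Its log2 fold change was 1.45 (edgeR adjusted p = 0.0222) and 1.24 (edgeR adjusted p = 0.045). With the block, edgeR called Tnfaip3, an inhibitor of NF-κB signaling, higher as well in CD18fl/fl (1.61, adjusted p = 0.0309) and CD18CD11c cKO BMDCs (1.83, adjusted p = 0.00569), and in the latter also Slc15a3 and Traf3. It called Slc46a3 and Card9, the adaptor of C-type lectin receptors, lower in both genotypes, and Nagk in CD18CD11c cKO BMDCs. DESeq2 without a block also called Tnfaip3 higher and Slc46a3 and Card9 lower in both. These genes were named after their values were seen. Of all genes, edgeR with the block called 6.33% higher and 6.43% lower in CD18fl/fl BMDCs. In CD18CD11c cKO BMDCs it called 10.2% higher and 9.93% lower. DESeq2 without a block called 5.15% and 4.39% in CD18fl/fl and 4.07% and 3.96% in CD18CD11c cKO BMDCs. At an unadjusted p under 0.05 with LPS, edgeR without the block placed 3034 of all 12744 genes in CD18fl/fl and 2685 of all 12687 in CD18CD11c cKO BMDCs. Of 17 NLR family and pyrin sensors, 12 were tested, and 4 and 2 were at such a p in CD18fl/fl and CD18CD11c cKO BMDCs. After adjustment, 0 of these sensors were called by that fit. With the block, edgeR called 3 of them higher in CD18fl/fl BMDCs, which were Naip1 (2.75, adjusted p = 0.0153) and Naip2 (1.31, adjusted p = 0.0488), partners of NLRC4 that bind bacterial proteins, and the DNA sensor Ifi204 (2.95, adjusted p = 0.0266). In CD18CD11c cKO BMDCs, it called Naip2 (0.92, adjusted p = 0.0216) and Ifi204 (2.55, adjusted p = 0.0056) higher. DESeq2 without a block called the same 3 higher and Nlrp1b lower in CD18fl/fl BMDCs, and Ifi204 higher in CD18CD11c cKO BMDCs. These sensors too were named after their values were seen.

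Between the genotypes, 0 of the listed genes were called by edgeR without the block or by DESeq2. In unstimulated BMDCs, 2159 of all 12876 genes had an unadjusted edgeR p under 0.05, as did 12 of the 71 listed genes tested. After LPS, 1212 of all 12441 genes had one, as did 11 of the 70 listed genes tested. With the block, 6 were higher and 13 lower in unstimulated (12.1% and 8.16% of all genes) and 0 higher and 7 lower in LPS-treated CD18CD11c cKO BMDCs (6.98% and 3.16%). The first lot included Il1b, whose log2 fold change was 0.78 (SE 0.19, adjusted p = 0.0282 by edgeR) in unstimulated BMDCs with the block.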

How the data were processed

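RNA-seq data of MHCII+ BMDCs of CD18fl/fl and CD18CD11c cKO mice, unstimulated or LPS-treated, were examined (12 libraries, 3 per group). Groups and replicate numbers were taken from the library labels. Per the paper's methods, poly(A)-selected libraries made with a NEBNext Ultra II RNA kit were sequenced single-end and mapped in CLC Genomics Workbench. The methods do not state whether the libraries keep the strand. The authors deposited raw counts for each gene as total gene reads, without normalization. The labels name GRCm38 as the build, whereas the methods name GRCm39, and the gene coordinates in the deposited tables match GRCm39. Total gene reads include reads with several mapping positions, and at least 95.9% of the reads of each member were unique. Of the reads of all genes, 95.1% to 96.2% were unique. Among the 66 pairs of libraries, the lowest chi-squared per degree of freedom was 46.6, so that no pair agreed within sampling noise.

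The counts were tested in edgeR 4.0.16 (limma 3.58.1) in R 4.3.3. For each pair of groups, the 6 libraries were fitted by the quasi-likelihood test after TMM scaling and the filter on low counts (minimum count 10), and p-values were adjusted by Benjamini-Hochberg over every gene tested, with a threshold of 0.05. The interaction of genotype and LPS was fitted on all 12 libraries. Standard errors (SE) were derived from the F statistic, as the absolute log2 fold change over √F. CPM are counts relative to the TMM-scaled library size. CPM per kilobase use the exon length of the deposited tables. Pearson r was computed on log2 CPM with a prior count of 2.

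The replicate numbers occur in every group, and whether same-numbered libraries share mice or cultures is not given in the sources used here. Over the 12 same-numbered pairs, the correlation of deviations from group means was 0.265 to 0.716 (-0.571 to 0.334 between other numbers). These ranges overlap, and all negative values involved replicate 3. For LPS in CD18fl/fl BMDCs, replicate 2 had 0.265 with its own number, and unstimulated replicate 1 had 0.278 with LPS replicate 2. In each other comparison, replicates 1 and 2 had higher values with their own number than with each other. For LPS in CD18CD11c cKO BMDCs these were 0.312 and 0.333 against 0.183 and 0.154. Between the genotypes they were 0.437 and 0.387 against 0.334 and 0.304 without stimulation, and 0.393 and 0.366 against 0.333 and 0.289 after LPS. The values thus set replicate 3 apart but do not show that replicates 1 and 2 are paired by number. Results with the block rest on that pairing being assumed. Blocked values are given beside a member's result where they change its call, and as counts for the lists.

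The members and lists were chosen with earlier results of these data known. All 10 members were named. Of the other listed genes, those called were named, at most 4 per list and comparison by adjusted p, plus Il1b, Il18, Casp12 and Itgb2. Genes beyond this rule are marked as such where they are named. The alternatives were DESeq2 1.42.0 without and with the block, RLE size factors, library size scaling, other filters, unique gene reads, the block alone and with an exon length offset (lowess, span 0.3) or library size scaling, each library left out, replicates 1 and 2 alone, and all 12 libraries in 1 fit. Total exon reads were added after the data were seen. The procedures were tested on simulated counts.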

Additional observations from a re-analysis of the deposited data

How the results depend on the processing

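Of 45 log2 fold changes of members, 10 kept their direction and their side of the threshold under every alternative, and 17 changed sign at least once. Where no cause is given, the cause was not tested. The number of genes called by edgeR with LPS in CD18fl/fl and CD18CD11c cKO BMDCs and between the genotypes in unstimulated and LPS-treated BMDCs (496, 506, 0 and 0) changed, in that order, to 1627, 2560, 2606 and 1262 with the replicate block, to 1719, 2557, 1486 and 979 with the block and the length offset, to 1621, 2748, 4583 and 2642 with the block and library size scaling, and to 6140, 2049, 1383 and 523 with replicates 1 and 2 alone. It was 1794, 1531, 538 and 150 by DESeq2, 3131, 3377, 3036 and 1869 by DESeq2 with the block, and 1068, 983, 19 and 45 with all 12 libraries in 1 fit. Without a filter on low counts, it was 805 for LPS in CD18CD11c cKO BMDCs and 1 between the genotypes after LPS. In the interaction test, DESeq2 called 1 gene and DESeq2 with the block 130, with 0 members among them. The replicate block alone changed no other edgeR call of a member with TMM scaling than those given above. DESeq2 with the block added Gsdmd with LPS in CD18fl/fl BMDCs.

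With LPS in CD18CD11c cKO BMDCs, 1 member (Pycard) was called lower by DESeq2 without or with the block, with all 12 libraries, with library size scaling, with replicates 1 and 2 alone, and in the 3 fits of edgeR with the block. Of all genes, DESeq2 called 755 of 19087 lower without and 1645 of 19186 with the block. The next 3 fits called 470 of 13752, 300 of 12687 and 1028 of 12872 lower. The block alone, with the length offset and with library size scaling called 1260, 1215 and 1864 of 12687 lower. In CD18fl/fl BMDCs, 1 member (Pycard) was lower with the block and library size scaling, and 3 with replicates 1 and 2 alone. The first of these fits called 1145 of 12744 genes lower and the second 3140 of 12924. Between the genotypes in unstimulated BMDCs, 3 members were higher and 1 lower with the block, by edgeR or DESeq2, 1 higher with the length offset, 1 higher (Pycard) and 3 lower (Nlrp3, Nod1 and Ripk2) with library size scaling beside the block, and 2 higher with replicates 1 and 2 alone. Library size scaling beside the block called 701 of all 12876 genes higher and 3882 lower there. After LPS, 1 member was higher with the block by either tool or with the length offset, 0 were higher and 2 lower (Gsdmd and Ripk2) with library size scaling beside the block, and 1 was lower with replicates 1 and 2 alone. Library size scaling beside the block called 590 of all 12441 genes higher and 2052 lower after LPS.

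Under library size scaling without and with the block, the log2 fold change of Aim2 with LPS was -0.10 and -0.11 in CD18fl/fl and -0.047 and -0.046 in CD18CD11c cKO BMDCs. Between the genotypes it was -0.15 and -0.15 for Nlrc4 and -0.24 and -0.23 for Casp4 without stimulation, and -0.084 and -0.087 for Casp1 and -0.11 and -0.11 for Casp4 after LPS. The Gsdmd difference between the unstimulated genotypes was 0.0052 (DESeq2), 0.014 (DESeq2 with the block), 0.014 (block), 0.0082 (RLE size factors), 0.020 (minimum count 50), 0.029 (total exon reads) and 0.0062 (unique gene reads). With the block and the length offset, Nlrc4 with LPS in CD18fl/fl BMDCs was 0.026, and after LPS the genotype difference was 0.032 for Nlrp3, -0.029 for Casp1 and 0.16 for Nod2. With replicates 1 and 2 alone, Nod1 with LPS in CD18fl/fl BMDCs was -0.12, the genotype difference after LPS was 0.38 for Nlrp3 and 0.27 for Nod2, and the Casp4 interaction was -0.031. DESeq2 with the block gave 0.027 for Nod2 between the genotypes after LPS and -0.0096 for the Ripk2 interaction. Under DESeq2, Nlrp3 (LPS in CD18fl/fl) and Nod1 (unstimulated genotypes) received no adjusted p.

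With each library left out, the members called higher with LPS ranged from 0 to 4 in CD18fl/fl and from 0 to 2 in CD18CD11c cKO BMDCs, those called lower from 0 to 1 in CD18fl/fl BMDCs, and all genes called from 0 to 3268 and from 0 to 1033. Between the genotypes after LPS, 0 to 1 genes were called. Log2 fold changes with LPS in CD18fl/fl BMDCs ranged from -2.11 to 0.26 (Nlrp3), from -0.26 to 0.072 (Nlrc4) and from -0.092 to 0.98 (Nod1), and in CD18CD11c cKO BMDCs from -1.24 to 0.40 (Nlrp3) and from -0.47 to 0.024 (Nod2). Between the genotypes they ranged from -1.25 to 0.036 (Nlrp3) and from -0.20 to 0.17 (Gsdmd) without stimulation, and from -1.46 to 1.18 (Nlrp3) and from -0.31 to 0.46 (Nod2) after LPS. The interaction ranged from -0.11 to 0.20 (Casp4) and from -0.39 to 0.69 (Ripk2). Depth limits Nod1, Nod2 and Nlrc4 most, whose lowest values rested on 46, 105 and 77 reads.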
